A study of Mus musculus with 6 samples.

Results

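Glycogen handling was followed in the livers of mice through 9 genes, taken by symbol from the 34866 genes of the deposited count table. The group was selected on values of this same table: its counts in iD1 and vehicle libraries and the fold changes between them were known when the genes were chosen. They are the glycogen-targeting phosphatase subunits Ppp1r3b, Ppp1r3c, Ppp1r3d and Ppp1r3g and the glycogen enzymes Gys2, Pygl, Gbe1, Ugp2 and Pgm2. All 9 were found, and 8 of them had enough counts to be tested, among 13718 tested genes. Ppp1r3d did not. The livers came from male C57BL/6 mice that were 8 weeks old. There were 3 libraries from mice given iD1, which the labels name by code alone, and 3 from mice given vehicle. A drug was given intraperitoneally, per the labels, and the mice had free access to food and water. The sources used here do not give the dose, the exposure time, any fast before collection or the target of iD1. Titles and design text call the second group vehicle, although its treatment is labelled as untreated. Nothing in the labels says that each library is a separate animal. The p-values therefore measure only the spread between these samples, and that spread may be technical.

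Liver stores glucose as glycogen after a meal and breaks it down between meals. Protein phosphatase 1 switches glycogen synthase on and glycogen phosphorylase off, and it reaches the glycogen particle through targeting subunits of the Ppp1r3 family. Each of these subunits binds the catalytic phosphatase and glycogen, so which subunit a cell makes sets where the phosphatase acts. The enzymes form a short route: phosphoglucomutase converts glucose 6-phosphate to glucose 1-phosphate, Ugp2 turns that into UDP-glucose, glycogen synthase adds the glucose to the chain, Gbe1 makes the branches and Pygl removes glucose again.

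Livers of both groups were set against each other to ask which transcripts of this system differ after treatment. In iD1 livers the transcript of Ppp1r3b, the main targeting subunit of liver, was lower in every library than in any vehicle library, while Ppp1r3g, barely detected with vehicle, was higher in every iD1 library. Among the enzymes, Pgm2 was higher and low in both groups, and Gys2, Pygl, Gbe1 and Ugp2 did not pass the test. The test was the quasi-likelihood F test of edgeR, and a gene was called where its Benjamini-Hochberg adjusted p over all tested genes was at most 0.05. Of the 8 tested members, 2 were called higher and 1 lower. Of all tested genes 16.7% were called, 8.42% higher and 8.3% lower. The CPM of the groups did not overlap in 3 of the 8 tested members, against 37.2% of all tested genes. Because this contrast was in view when the members were chosen, their fold changes and calls are a description and support nothing beyond it.

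The libraries held 24694639, 35207596 and 23515571 estimated counts with iD1, and 27160894, 37613549 and 32342898 with vehicle. One vehicle library carries a number that no sample title has and is called the unnumbered vehicle replicate. Mitochondrially encoded genes took 8.68% to 10.3% of the counts with iD1 and 10.6% to 13.6% with vehicle. The hepatocyte markers Alb, Apoa1, Ttr, Cps1 and Tat summed to 88400 to 97900 CPM with iD1 and 68200 to 90800 CPM with vehicle, and 2 of the 5, Apoa1 and Tat, were called higher. CPM values are counts scaled to a common library size, after correction by trimmed mean of M values (TMM). Of 5 neutrophil markers 3 were tested and called higher, and the list summed to 2.06 to 10.4 CPM with iD1 and 0.333 to 0.459 CPM with vehicle. These 3, S100a8, S100a9 and Retnlg, had at most 12 counts in any vehicle library. They passed the filter on low counts through their iD1 libraries, so at this vehicle level they could be tested only if higher with iD1. Of those too low to test, Mmp8 averaged 0.420 CPM with iD1 and 0.0111 CPM with vehicle, and Ngp 0.0633 and 0.0506 CPM. The 5 adipocyte markers summed to 8.73 to 12.9 CPM with iD1 and 3.12 to 5.13 CPM with vehicle. Of the 2 that were tested, Cidec was called higher and Plin1 was not. Cidec averaged 9.91 CPM with iD1 and 3.17 CPM with vehicle, so the higher sum was set mainly by this gene. Plin1 averaged 0.714 CPM with iD1 and 0.572 CPM with vehicle. The 3 that were too low to test were Adipoq, at 0.342 CPM with iD1 and 0.512 CPM with vehicle, Lep, at 0.0242 CPM with iD1 and 0.0321 CPM with vehicle, and Retn, at 0.169 CPM with iD1 and 0.0658 CPM with vehicle. No Kupffer cell or red blood cell marker was called, of 5 tested each, nor was the 1 skeletal muscle marker of 5 that was tested. Of 5 markers each, 1 sinusoidal endothelial and 1 stellate cell marker were called lower, and 1 cholangiocyte marker was called higher and 1 lower. The part of other cells, or of the mitochondrial share, in the results below was not tested. In whole liver, fewer cells that make a transcript and less transcript per cell cannot be told apart.

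Ppp1r3b (ENSMUSG00000046794) encodes GL, the subunit that ties the phosphatase to glycogen in liver and that active phosphorylase can bind and inhibit. It lies on the plus strand of chromosome 8 from 35375739 to 35388139, in GENCODE M21 on GRCm38, which is the source of all gene positions here. Ppp1r3b measured 284, 167 and 194 CPM in iD1 replicates 1, 2 and 3, against 483, 523 and 600 CPM in vehicle replicates 1 and 2 and the unnumbered vehicle replicate. The groups did not overlap, and the highest iD1 value, in replicate 1, was still under the lowest vehicle value. The means were 215 ± 61.6 CPM with iD1 and 535 ± 59.8 CPM with vehicle (SD, n = 3 each). The log2 fold change was -1.32 (SE 0.21), which is 2.49-fold lower in iD1 livers, and it ranged from -1.57 to -1.17 over all 16 alternative fits, called in each.

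Ppp1r3g (ENSMUSG00000050423) encodes a further subunit made in liver, whose transcript is known in mouse liver to be higher in fasting than after feeding. It lies on the plus strand of chromosome 13 from 35958839 to 35970388. Ppp1r3g measured 3.51, 18.5 and 42.6 CPM in iD1 replicates 1, 2 and 3, against 0.166, 0.0964 and 0.0613 CPM in vehicle replicates 1 and 2 and the unnumbered vehicle replicate. Every iD1 library lay above every vehicle library, but the iD1 libraries themselves were spread widely, with replicate 1 lowest and replicate 3 highest. In counts, the gene had 87, 571 and 917 with iD1 and 5, 4 and 2 with vehicle. The 1575 summed counts with iD1 against 11 with vehicle gave a ratio of 193, with an exact 95% interval from 108 to 388 that covers counting error only. The fitted log2 fold change was 7.61 (SE 1.42). By size it ranked 2 among all tested genes. The gene passed the filter on low counts through its iD1 libraries alone, so a gene at this vehicle level could be tested only if it differed. Its call was lost without iD1 replicate 2 (log2 fold change 7.70) and without each of the vehicle replicates 1 (7.98), 2 (7.53) and the unnumbered one (7.35). It was also lost with limma-voom (6.93) and with no filter on low counts (7.59). Without iD1 replicate 3 the log2 fold change was 6.66.

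Ppp1r3c (ENSMUSG00000067279) encodes PTG, a targeting subunit made in many tissues. It lies on the minus strand of chromosome 19 from 36731731 to 36736653. Ppp1r3c measured 81.8, 48.6 and 70.7 CPM in iD1 replicates 1, 2 and 3, against 63.8, 35.9 and 42.7 CPM in vehicle replicates 1 and 2 and the unnumbered vehicle replicate. The groups overlapped, since iD1 replicate 2 lay below vehicle replicate 1. The log2 fold change was 0.50 (SE 0.26) and was not called. Without iD1 replicate 2 or any other library it was not called either, with log2 fold changes from 0.31 to 0.77 over the 16 alternative fits.

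Ppp1r3d (ENSMUSG00000049999) encodes R6, a further widely made subunit. It lies on the minus strand of chromosome 2 from 178411206 to 178414472. Ppp1r3d was at the limit of detection, with 5, 11 and 3 counts in iD1 replicates 1, 2 and 3, against 5, 4 and 3 counts in vehicle replicates 1 and 2 and the unnumbered vehicle replicate. The ratio of its summed counts, 19 with iD1 and 12 with vehicle, was 2.14 after scaling, with an exact 95% interval from 0.984 to 4.82 for counting error only. A difference was not detectable at this depth.

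**Figure D1:**
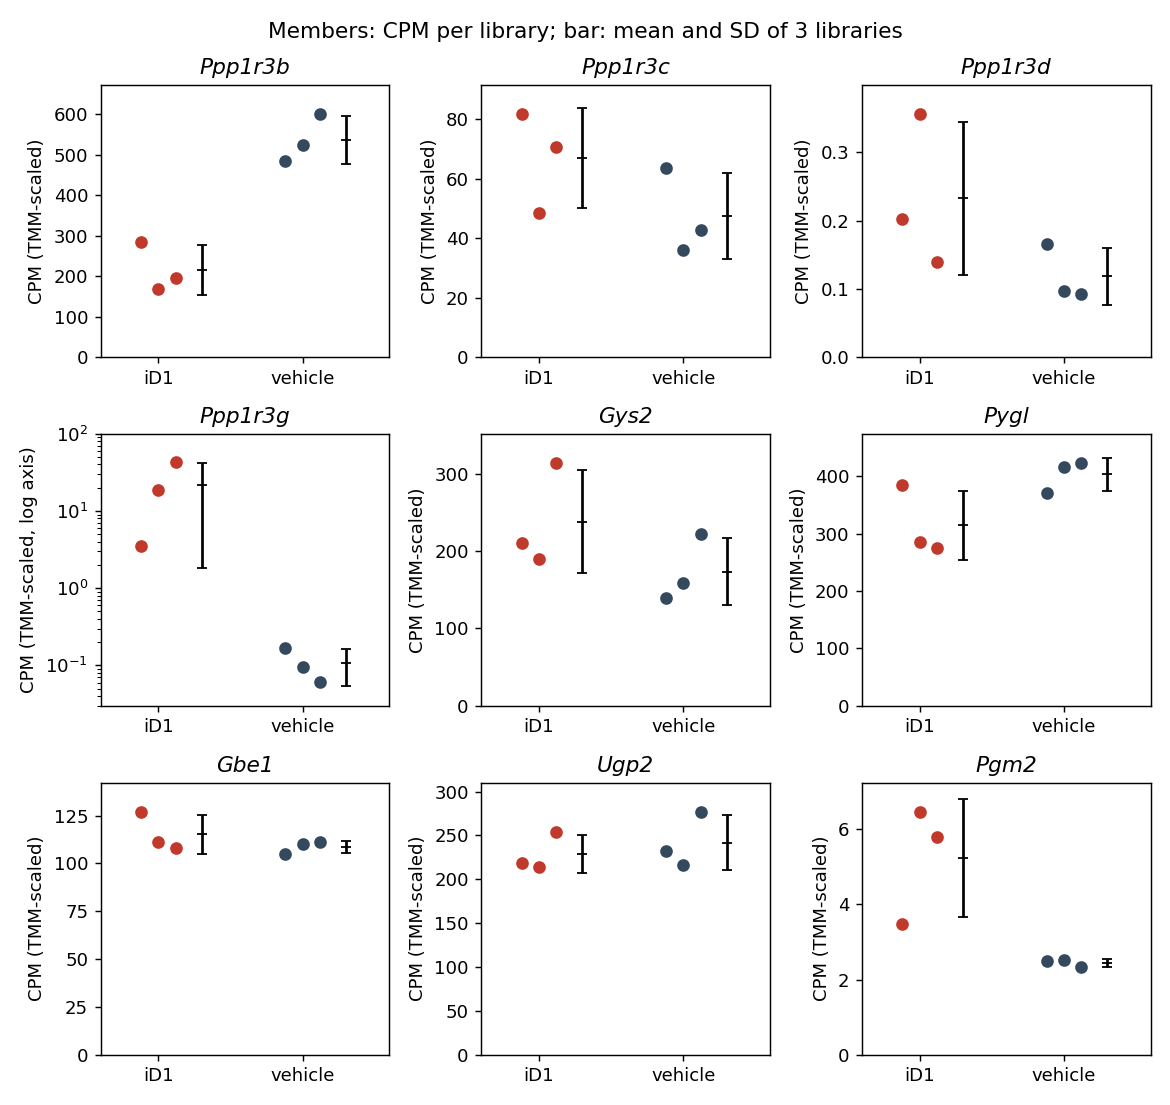
CPM (vertical axes, TMM-scaled) of the 9 members in the 3 iD1 libraries (red) and the 3 vehicle libraries (dark), with the mean and SD of each group as a bar beside the points; the axis of Ppp1r3g is logarithmic and the others start at 0. The iD1 points of Ppp1r3b lie at 167 to 284 CPM, under the vehicle points at 483 to 600 CPM, and those of Ppp1r3g at 3.51 to 42.6 CPM, over vehicle points of at most 0.166 CPM.

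Set side by side per transcript length, the members of the Ppp1r3 family made up a different mix in the 2 groups. Levels between genes are given in TPM, a length-scaled unit with the same sum in each library, computed here from the deposited counts and the longest annotated transcript of each gene. Ppp1r3b took 66.5%, 58.7% and 49.4% of the summed TPM of the 7 family genes in iD1 replicates 1, 2 and 3, against 81.3%, 88.7% and 88.8% in vehicle replicates 1 and 2 and the unnumbered vehicle replicate. Ppp1r3c took 30.8%, 27.6% and 29.0% with iD1, against 17.3%, 9.80% and 10.2% with vehicle. For both subunits the shares of the 2 groups did not overlap, and the larger share of Ppp1r3c stood beside a level that was not called. That level was 35.2 ± 11.7 TPM with iD1 and 27.6 ± 8.54 TPM with vehicle. Since a share rises when the main part of its sum falls, the larger share does not show more Ppp1r3c transcript. Ppp1r3g took 1.51%, 12.0% and 19.9% with iD1, against 0.0515%, 0.030% and 0.0166% with vehicle. Ppp1r3g was thus the third subunit of the mix in each iD1 library, although in iD1 replicate 1 it was not far above Ppp1r3e, a further family member, at 1.04%. Ppp1r3e took 0.965% to 1.49% over all 6 libraries, and the muscle subunit Ppp1r3a, Ppp1r3d and Ppp1r3f together stayed below these shares in each library. The summed TPM of the family was 151, 84.2 and 123 with iD1, against 216, 229 and 226 with vehicle. The sum was thus lower in each iD1 library than in any vehicle library. Ppp1r3b alone averaged 70.3 TPM with iD1 and 193 TPM with vehicle, of mean sums of 120 and 224 TPM. TPM carries no TMM correction, and with library size only the median log2 fold change of all tested genes was -0.20. The part of such an offset in the lower sum was not tested. These shares come from the same contrast as the calls and are a description with no test.

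**Figure D2:**
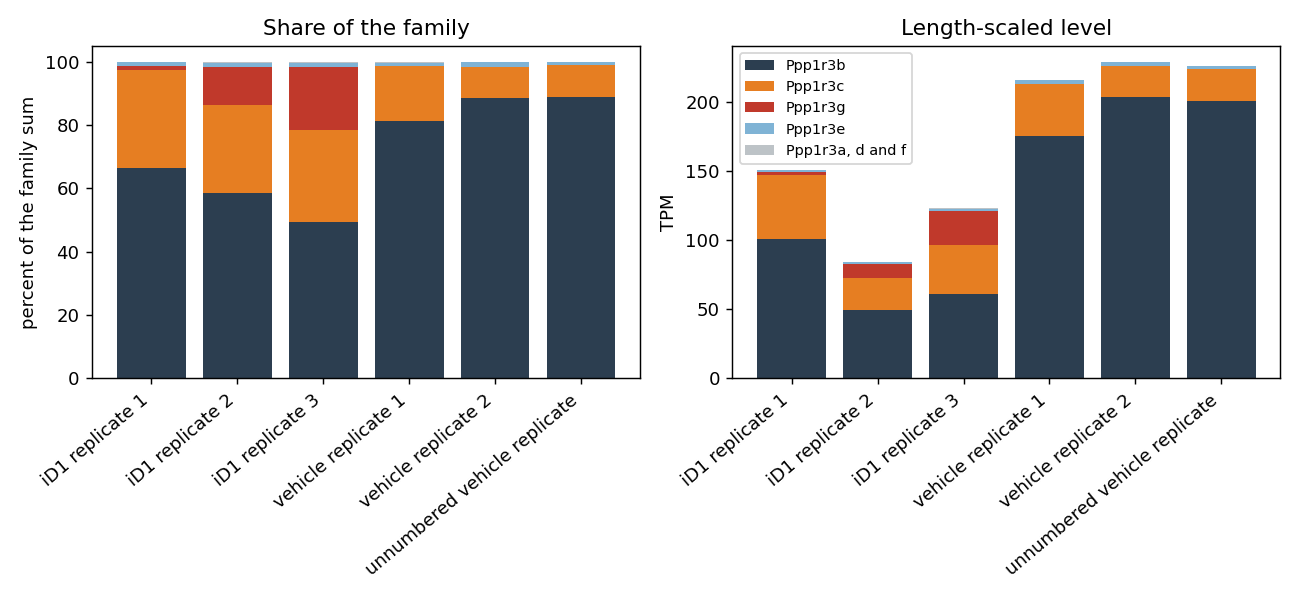
Left, percent of the summed length-scaled level of the 7 Ppp1r3 genes that each subunit took in each library; right, the same levels in TPM. The 3 iD1 libraries stand left of the 3 vehicle libraries, and Ppp1r3b falls to 49.4% to 66.5% with iD1, against 81.3% to 88.8% with vehicle, while the family sum is 84.2 to 151 TPM with iD1 and 216 to 229 TPM with vehicle.

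The synthesis enzymes showed no change that passed the test. Gys2 (ENSMUSG00000030244), the liver glycogen synthase, lies on the minus strand of chromosome 6 from 142422613 to 142473109. Gys2 measured 210, 190 and 314 CPM in iD1 replicates 1, 2 and 3, against 139, 159 and 222 CPM in vehicle replicates 1 and 2 and the unnumbered vehicle replicate. The highest vehicle library lay among the iD1 libraries, so the groups overlapped. Its log2 fold change was 0.46 (SE 0.23). Ugp2 (ENSMUSG00000001891), which makes UDP-glucose, lies on the minus strand of chromosome 11 from 21321138 to 21371201. Ugp2 measured 219, 214 and 254 CPM with iD1, against 232, 216 and 277 CPM with vehicle, and its log2 fold change was -0.08 (SE 0.15). The groups overlapped, but the unnumbered vehicle replicate lay above every iD1 library. Without the unnumbered vehicle replicate the log2 fold change of Ugp2 was 0.03. Exons of Ugp2 share 78 bases with Gm12043 on the other strand. Gbe1 (ENSMUSG00000022707), the branching enzyme, lies on the plus strand of chromosome 16 from 70313949 to 70569716. Gbe1 measured 127, 111 and 108 CPM with iD1, against 105, 110 and 111 CPM with vehicle. It varied least of the 9 members, with a coefficient of variation of 8.76% with iD1 and 3.01% with vehicle. Its log2 fold change was 0.09 (SE 0.12), and -0.11 when only the library size was used for scaling, which moved the median of all tested genes to -0.20.

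Pygl (ENSMUSG00000021069), the liver glycogen phosphorylase, lies on the minus strand of chromosome 12 from 70190811 to 70231488. Pygl measured 384, 285 and 275 CPM in iD1 replicates 1, 2 and 3, against 370, 416 and 423 CPM in vehicle replicates 1 and 2 and the unnumbered vehicle replicate. Only iD1 replicate 1 reached into the vehicle range. The log2 fold change was -0.36 (SE 0.16) and was not called. Without iD1 replicate 1 it was -0.52 and was called lower.

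Pgm2 (ENSMUSG00000029171) lies on the plus strand of chromosome 5 from 64092950 to 64128351. The symbols Pgm1 and Pgm2 have been used for each other in mouse: RefSeq lists Pgm1 as an older symbol of this gene and Pgm2 as an older symbol of the present Pgm1 on chromosome 4. The human gene now called PGM2 is known for an enzyme that acts mainly on pentose phosphates, and the one called PGM1 for the enzyme of the glycogen route. Pgm2 measured 3.47, 6.47 and 5.80 CPM in iD1 replicates 1, 2 and 3, against 2.49, 2.53 and 2.33 CPM in vehicle replicates 1 and 2 and the unnumbered vehicle replicate. The groups did not overlap, and iD1 replicate 1 lay nearest to vehicle. The log2 fold change was 1.10 (SE 0.24), which is 2.14-fold higher with iD1. The call was lost without iD1 replicate 2 (log2 fold change 0.91), without iD1 replicate 3 (1.03) and without the unnumbered vehicle replicate (1.06). Pgm1, named for this history and not by the rule for named genes, measured 181, 167 and 178 CPM with iD1, against 152, 149 and 138 CPM with vehicle. Its groups did not overlap either, but its log2 fold change of 0.26 (SE 0.12) was not called in edgeR's quasi-likelihood test (adjusted p = 0.153). Exons of Pgm1 share 398 bases with Itgb3bp on the other strand. Per length, Pgm2 was 2.0%, 3.96% and 3.36% of the summed TPM of both genes with iD1, against 1.72%, 1.78% and 1.77% with vehicle, so most of this pair was Pgm1 in each library.

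The order of the members by TPM differed between the groups. In iD1 livers Pygl averaged 142 ± 40.3, Gys2 126 ± 35.2 and Ugp2 120 ± 14.5 TPM (SD, n = 3), and these 3 neighbours did not differ beyond their spread. Ppp1r3b followed at 70.3 ± 26.8, Gbe1 at 43.8 ± 7.79 and Ppp1r3c at 35.2 ± 11.7 TPM, each overlapping the next by mean and SD. Ppp1r3g at 12.3 ± 11.3 TPM overlapped Ppp1r3c above it and Pgm2, at 3.07 ± 0.698 TPM, below it, and Ppp1r3d came last at 0.0988 ± 0.0415 TPM. Within each single iD1 library, Ppp1r3b lay above Gbe1, Gbe1 above Ppp1r3c and Ppp1r3c above Ppp1r3g. In vehicle livers Pygl averaged 203 ± 19.4 TPM and Ppp1r3b 193 ± 15 TPM, which overlapped. Ugp2 at 142 ± 7.74, Gys2 at 103 ± 19.1, Gbe1 at 46.1 ± 3.47, Ppp1r3c at 27.6 ± 8.54 and Pgm2 at 1.65 ± 0.195 TPM came next, with no overlap between neighbours. Ppp1r3g at 0.0726 ± 0.0371 TPM and Ppp1r3d at 0.0577 ± 0.0211 TPM overlapped at the end of the order. Ppp1r3b thus stood in place 4 of 9 in iD1 livers and in place 2 in vehicle livers, and Ppp1r3g in place 7 in iD1 livers and place 8 in vehicle livers. This order rests on the longest transcript of each gene, and its hold under union exon lengths was not tested. The longest transcript and the union of exons have 3150 and 6895 bases for Pygl and 4386 and 6216 for Ppp1r3b. For Gys2 both have 2657 bases, so the places of Pygl and Ppp1r3b among their neighbours may depend on this choice. Gys2 made up 99.3% to 99.6% of the summed TPM of Gys1 and Gys2 with iD1 and 98.5% to 99.3% with vehicle, and Pygl at least 99.0% of that of Pygl, Pygb and Pygm in each library of either group, so the liver forms dominated in both groups.

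Other genes of glycogen handling were taken from a list of 47 genes chosen with earlier results of these data known. Of these, 46 were tested, 4 were called higher and 5 lower, which is to be read against the 8.42% and 8.3% of all tested genes. The median log2 fold change was -0.06 over the 46 genes and 0.00 over all tested genes. In 20 of the 46 genes the 2 groups had no overlap, against 37.2% of all tested genes. Adjusted p-values below are from edgeR's quasi-likelihood test over all tested genes.

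Among 5 tested further phosphatase subunits, 1 was called, and it was higher. Ppp1cc, the gamma catalytic subunit, measured 53.3, 66.0 and 61.4 CPM in iD1 replicates 1, 2 and 3, against 40.4, 37.4 and 40.3 CPM in vehicle replicates 1 and 2 and the unnumbered vehicle replicate. It was higher in each iD1 library, with a log2 fold change of 0.61 (SE 0.12, adjusted p = 0.00869). The alpha and beta catalytic subunits Ppp1ca and Ppp1cb had 0.09 (SE 0.13) and -0.09 (SE 0.11) on the log2 scale and were not called. Ppp1r3a had 0 counts with iD1 and 4 with vehicle in all and was not tested.

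Of 9 further isoforms and enzymes of glycogen, 1 was higher and 2 were lower. Stbd1, a protein that binds glycogen and anchors it to membranes, measured 38.1, 45.8 and 38.6 CPM with iD1, against 55.0, 58.8 and 72.0 CPM with vehicle. The groups did not overlap, and the log2 fold change was -0.60 (SE 0.14, adjusted p = 0.0178). Gaa, the acid glucosidase that digests glycogen in lysosomes, measured 56.3, 56.2 and 50.7 CPM with iD1, against 39.1, 40.8 and 32.7 CPM with vehicle. It was higher in all 3 iD1 libraries, with a log2 fold change of 0.53 (SE 0.12, adjusted p = 0.0178). Pygb, the brain form of phosphorylase, was low, at 2.22 ± 0.430 CPM with iD1 and 3.87 ± 0.822 CPM with vehicle (SD, n = 3 each), with a log2 fold change of -0.79 (SE 0.23, adjusted p = 0.0460). The call of Stbd1 was lost without iD1 replicate 3 (log2 fold change -0.56) and without the unnumbered vehicle replicate (-0.48). That of Gaa was lost without iD1 replicate 2 (0.50), without the unnumbered vehicle replicate (0.44) and with library size only (0.33). That of Pygb was lost without the iD1 replicates 1 (-0.72) and 3 (-0.70), each in turn, without vehicle replicate 2 (-0.77), without the unnumbered vehicle replicate (-0.65) and with limma-voom (-0.77).

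Of 16 kinases and regulators of synthase and phosphorylase, 1 was higher and 2 were lower. Epm2aip1, a partner of laforin known in mouse liver for its tie to glycogen synthase, measured 24.3, 16.8 and 20.9 CPM in iD1 replicates 1, 2 and 3, against 40.8, 40.7 and 44.0 CPM in vehicle replicates 1 and 2 and the unnumbered vehicle replicate. The groups were far apart, with a log2 fold change of -1.02 (SE 0.14, adjusted p = 0.00217), and the call was kept in all 16 alternative fits. Gsk3a, a kinase that phosphorylates and inhibits glycogen synthase, measured 42.5, 42.6 and 42.6 CPM with iD1, against 25.3, 29.0 and 28.1 CPM with vehicle. It was higher in each iD1 library, with a log2 fold change of 0.63 (SE 0.11, adjusted p = 0.00526). Exons of Gsk3a share 820 bases with 9130221H12Rik on the other strand, and the sources used here do not say whether the authors' counting used strand. Nhlrc1, the ubiquitin ligase malin, which acts with laforin, was low at 0.618 ± 0.0249 CPM with iD1 and 1.22 ± 0.106 CPM with vehicle (SD, n = 3 each). Its log2 fold change was -0.98 (SE 0.29, adjusted p = 0.0455), and its call was lost without any of the 6 libraries, with log2 fold changes from -1.05 to -0.93, with DESeq2 (-0.98) and with no filter on low counts (-0.99). None of the 5 tested phosphorylase kinase subunits and none of the 6 tested AMP-activated kinase subunits was called.

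Of 8 genes for the supply and release of glucose 6-phosphate, 1 was called, and it was higher. G6pc, the phosphatase that releases free glucose, measured 455, 331 and 693 CPM with iD1, against 175, 144 and 113 CPM with vehicle. It was higher in each iD1 library, with a log2 fold change of 1.78 (SE 0.28, adjusted p = 0.00510). The call was kept in all 16 alternative fits.

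Of 8 hormone receptors and protein kinase A subunits, 1 was called, and it was lower. Prkar2a, a regulatory subunit of protein kinase A, measured 67.4, 69.2 and 66.8 CPM with iD1, against 84.7, 99.9 and 89.8 CPM with vehicle. It was lower in each iD1 library, with a log2 fold change of -0.43 (SE 0.11, adjusted p = 0.0283). The call of Prkar2a was lost when any iD1 library was left out (log2 fold change -0.42, -0.45 and -0.42 without replicates 1, 2 and 3), and also without vehicle replicate 2 (-0.36) or the unnumbered one (-0.45). The glucagon receptor Gcgr and the insulin receptor Insr were not called, with log2 fold changes of 0.03 (SE 0.13) and 0.31 (SE 0.13). They were named after their values were seen.

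**Figure D3:**
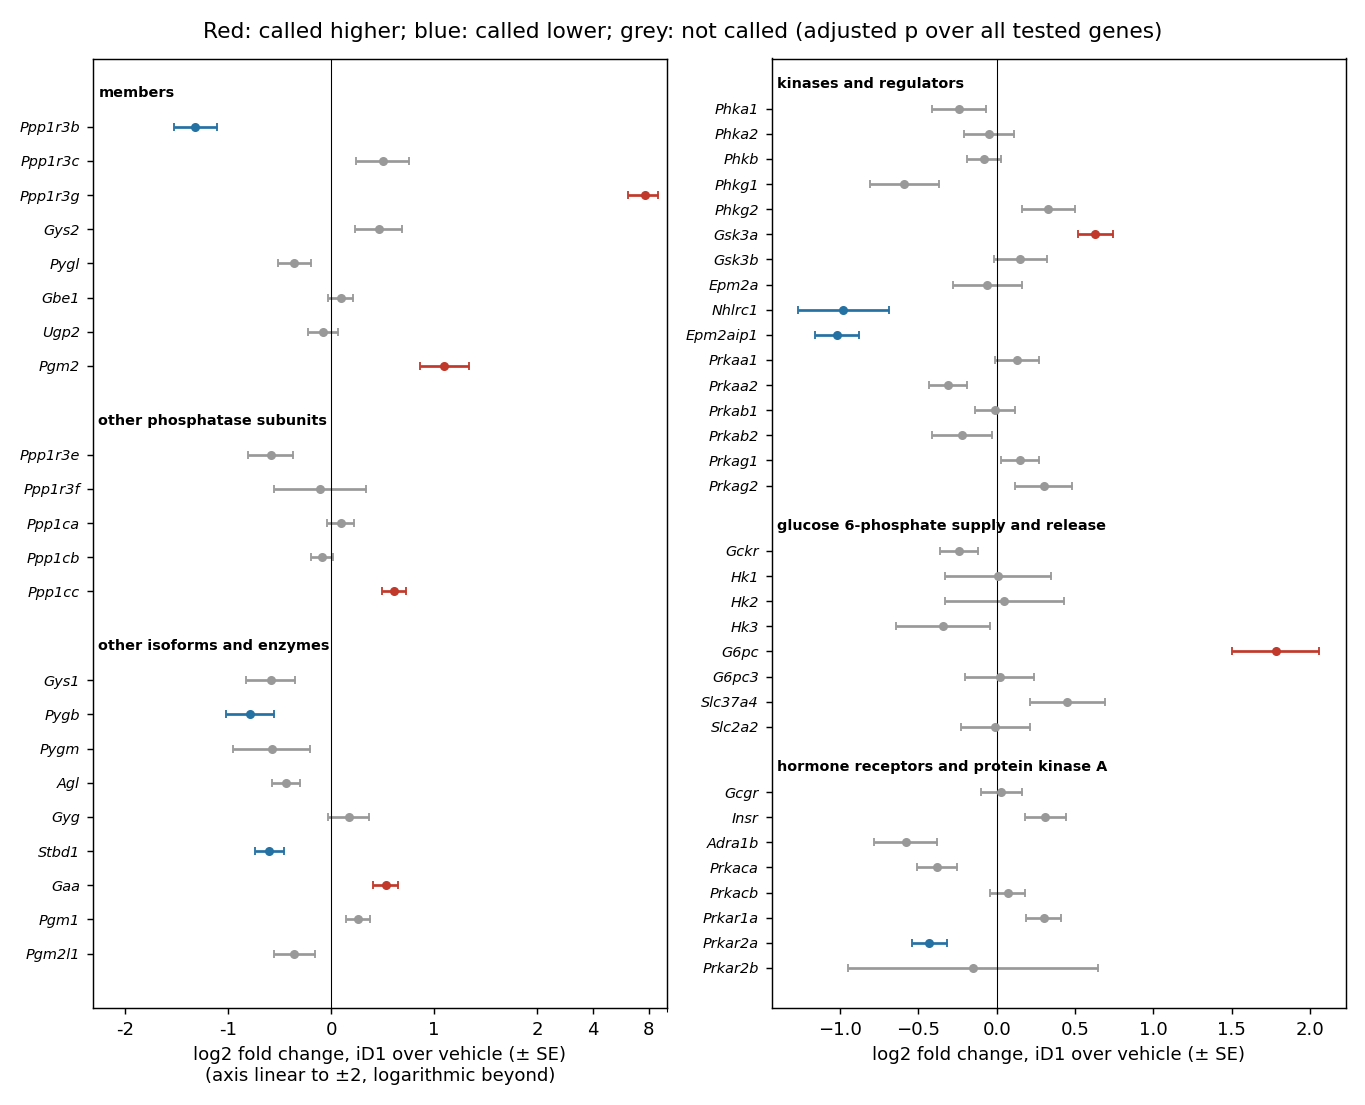
Log2 fold change of iD1 over vehicle (horizontal axes, with SE) for the 8 tested members and the 46 other tested genes, by group; red marks genes called higher, blue genes called lower and grey genes not called. The left axis is linear to 2 on either side and logarithmic beyond, so that Ppp1r3g at 7.61 can be shown beside Ppp1r3b at -1.32, and of the members Gbe1 at 0.09 and Ugp2 at -0.08 lie nearest to 0.

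Ratios of TPM within a library do not depend on how the libraries were scaled, and 3 of them were chosen after the values were seen. Ppp1r3g over Ppp1r3b was 0.0227, 0.204 and 0.404 in iD1 replicates 1, 2 and 3, against 6.33e-04, 3.39e-04 and 1.87e-04 in vehicle replicates 1 and 2 and the unnumbered vehicle replicate. Ppp1r3b over Ppp1r3c was 2.16, 2.13 and 1.70 with iD1, against 4.70, 9.05 and 8.74 with vehicle. Gys2 over Pygl was 0.649, 0.789 and 1.35 with iD1, against 0.446, 0.454 and 0.621 with vehicle. The groups did not overlap in any of these 3 ratios. The CPM of the groups did not overlap in 37.2% of all tested genes, but that figure is for single genes and not for chosen pairs. Ppp1r3b and Ppp1r3g did not overlap alone either, so the ratios that hold them in part restate those results. Neither Gys2 nor Pygl was called alone. The margin between iD1 replicate 1 and the unnumbered vehicle replicate was narrow for Gys2 over Pygl. No test was made of these ratios.

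**Figure D4:**
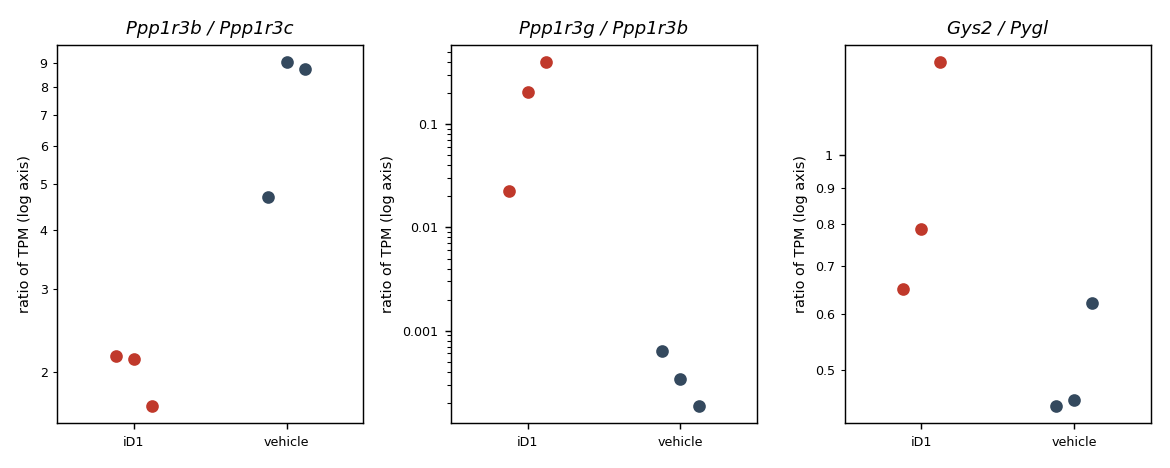
Ratio of TPM within each library (vertical logarithmic axes) for 3 pairs of genes, with 3 iD1 libraries (red) left of 3 vehicle libraries (dark). Ppp1r3b over Ppp1r3c lies at 1.70 to 2.16 with iD1 and 4.70 to 9.05 with vehicle.

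The tested genes outside the lists whose pattern was most like that of a called member were found by the root mean square difference between log2 CPM profiles over the 6 libraries, each centred on its own mean. Since 1 contrast sets most of such a profile, this describes likeness and gives no test. For Ppp1r3b the 3 nearest were Dll4, Rab3a and Klhl4, at 0.0915, 0.111 and 0.119. Their group means did not exceed 3.17 CPM. For Ppp1r3g they were Igfbp1 at 0.786, Fbf1 at 1.16 and Hspa1a at 1.22, which are wider differences than those of the other called members. Igfbp1, an insulin-like growth factor binding protein, averaged 1120 ± 540 CPM with iD1 and 16.2 ± 8.86 CPM with vehicle (SD, n = 3 each). For Pgm2 they were Map3k8 at 0.0688, Zfp612 at 0.0868 and Sgk1 at 0.0981. Sgk1, a kinase induced by glucocorticoids, averaged 30.2 ± 8.15 CPM with iD1 and 13.2 ± 0.435 CPM with vehicle.

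The promoter windows of 3 members are shown. Ppp1r3g and Pgm2 were the members called higher. Ppp1r3c was not called, and its larger share stood beside the lower level of Ppp1r3b. RefSeq promoter windows on GRCm38.p6 were found for 7 of the 9 members. Ppp1r3b, the member called lower, and Gys2 had none. The 250 bases before the RefSeq start site are printed 5′ to 3′ on the strand of the gene, with motif matches in capitals. The window of Ppp1r3g is chr13:35967656-35967905 on the plus strand, that of Pgm2 chr5:64092689-64092938 on the plus strand and that of Ppp1r3c chr19:36736605-36736854 on the minus strand. The GENCODE gene Ppp1r3g begins upstream of its window, at 35958839. Ppp1r3c, on the minus strand, begins in GENCODE at 36736653, inside its window, so the last bases printed for it lie within that gene.
Ppp1r3g: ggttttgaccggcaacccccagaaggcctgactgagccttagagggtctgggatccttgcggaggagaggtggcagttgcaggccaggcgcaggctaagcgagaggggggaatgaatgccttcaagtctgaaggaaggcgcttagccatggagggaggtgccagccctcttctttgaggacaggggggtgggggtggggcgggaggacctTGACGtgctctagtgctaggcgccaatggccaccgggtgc
Pgm2: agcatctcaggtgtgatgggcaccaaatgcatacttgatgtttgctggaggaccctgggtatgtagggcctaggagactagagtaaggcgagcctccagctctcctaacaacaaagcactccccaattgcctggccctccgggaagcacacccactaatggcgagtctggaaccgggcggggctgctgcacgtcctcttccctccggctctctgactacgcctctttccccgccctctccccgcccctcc
Ppp1r3c: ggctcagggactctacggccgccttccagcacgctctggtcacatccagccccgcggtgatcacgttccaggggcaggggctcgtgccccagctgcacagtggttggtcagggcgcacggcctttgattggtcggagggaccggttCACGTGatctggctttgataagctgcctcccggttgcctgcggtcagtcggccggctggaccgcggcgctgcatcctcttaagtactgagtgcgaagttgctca

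Both strands were searched for 9 motifs. They are the cyclic AMP response element (CRE) core TGACG, the palindromic CRE TGACGTCA, which holds that core, the forkhead motif TGTTTAC, the E-box CACGTG, the AP-1 motif TGANTCA, the C/EBP motif TTGCNNAA, the glucocorticoid receptor hexamer AGAACA, the TATA box TATAAA and the HNF4 motif CAAAGTCCA. Among 32851 RefSeq windows of the same length, the shares that hold them are, in that order, 17.8%, 1.55%, 3.17%, 6.02%, 6.75%, 9.56%, 16.1%, 12.4% and 0.384%. Ppp1r3g held 1 match, the CRE core from -40 to -36 relative to the start site. Ppp1r3c held 1 match, the E-box from -104 to -99. Pgm2 held none of the 9. Of the windows not printed, Pygl held the CRE core from -44 to -40 on its other strand, Ppp1r3d held 2 CRE cores and an E-box that overlaps 1 of them, 1 of the 2 windows of Ugp2 held the C/EBP motif and Gbe1 held none. These matches describe letters in a window and not binding.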

How the data were processed

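RNA sequencing of mouse liver was analysed from 3 iD1 and 3 vehicle libraries, made with a stranded mRNA kit, per the labels' protocols. Estimated counts, 1 table for all libraries, are what the authors deposited, without any scaling. The sources used here do not give the aligner, quantifier, build or annotation. In each library 22.6% to 27.7% of values were not whole, and all were rounded before tests. Reads shared among similar genes can be split by such estimates. Symbols, positions and transcript lengths came from GENCODE M21, which matched 99.4% of identifiers without version and 93.6% with version.

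Genes were kept by filterByExpr (minimum count 10, minimum total 15). edgeR 4.0.16 in R 4.3.3 was used with TMM factors from 0.878 to 1.11 and a robust quasi-likelihood F test, two-sided, with Benjamini-Hochberg adjustment over 13718 genes. The SE is the absolute log2 fold change divided by the square root of F. An exact permutation test of 3 libraries against 3 cannot go under 0.1. Totals of 23515571 to 37613549 counts set the precision, and intervals cover counting error only. Libraries within a group all differed by more than sampling noise.

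The members, lists and tests were chosen with earlier results of these data known. Genes named by rule were the 9 members and each called gene of the pathway list. For likeness, 3 genes per called member were named, outside the lists and predicted genes. Other pathway genes that are named, such as Ppp1ca, Ppp1cb, Ppp1r3a, Ppp1r3e, Pgm1, Gcgr and Insr, were outside this rule. Results for 2 further pathway genes are not reported here, and the list and its counts leave them out. The alternatives tried were DESeq2 1.42.0, limma-voom (limma 3.58.1), 3 other scalings, other filters, shrinkage that is not robust, a threshold of 0.01, thinning, a replicate block, leaving out each library and, for shares, union exon lengths.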

Additional observations from a re-analysis of the deposited data

How the results depend on the processing

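Counts of calls depended on the libraries and, in part, on the settings, while Ppp1r3b, Epm2aip1 and G6pc were called under each of the 16 alternative fits. Over the fits that leave out 1 library, the genes called higher ranged from 592 to 1201 and lower from 578 to 1373, members called higher from 0 to 2 and lower from 1 to 2, and other pathway genes called higher from 3 to 4 and lower from 1 to 5. Pathway genes called lower numbered 1 when iD1 replicate 3 was left out, and 2 when vehicle replicate 2 or the unnumbered vehicle library was. Members called higher numbered 0 without iD1 replicate 2 or the unnumbered vehicle library, and 1 without iD1 replicate 3, vehicle replicate 1 or vehicle replicate 2, and 2 were lower without iD1 replicate 1. With library size only, 597 genes were higher and 1883 lower, and 9 other pathway genes were lower. Members called higher numbered 1 with limma-voom and 1 with no filter on low counts. At a threshold of 0.01, 458 genes were higher and 367 lower, 0 members were higher, and other pathway genes were 3 higher and 1 lower. The log2 fold change of Gbe1 turned to -0.11 with library size only and that of Ugp2 to 0.03 without the unnumbered vehicle replicate, within a range from -0.16 to 0.03 over the fits that leave out 1 library. The cause of these changes was not tested.

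The replicate block used the 4 libraries whose numbers both groups share, and called 407 genes higher and 361 lower, 1 member higher, and 1 other pathway gene higher and 1 lower. Under it the calls of Pgm2 (log2 fold change 0.93, adjusted p = 0.131 in edgeR's quasi-likelihood test), Ppp1cc (0.61, adjusted p = 0.131) and Gsk3a (0.65, adjusted p = 0.0948) were lost, as were those of Pygb, Stbd1, Gaa, Nhlrc1 and Prkar2a, with adjusted p from 0.192 to 0.334. The same 4 libraries without the block gave 521 calls. Same-numbered libraries had deviations from their group means that correlated at 0.169 for number 1 and -0.127 for number 2. Pairs across the groups with unlike numbers ran from -0.245 to 0.218. With so few libraries these values cannot tell whether same-numbered samples share more than a number.

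With union exon lengths, the mean share of Ppp1r3b with vehicle was 82.0%, against 86.3% with the longest transcript, and that of Ppp1r3c with iD1 was 35.9%, against 29.1%. Over the means that leave out 1 library, Ppp1r3b ranged from 54.1% to 62.6% with iD1 and 85.0% to 88.8% with vehicle, Ppp1r3c from 28.3% to 29.9% with iD1 and 9.98% to 13.7% with vehicle, Ppp1r3g from 6.73% to 16.0% with iD1 and 0.0233% to 0.0408% with vehicle, and Ppp1r3d from 0.0555% to 0.116% with iD1 and 0.0201% to 0.0298% with vehicle. Depth limits Ppp1r3d, with 3 to 11 counts a library, and the vehicle level of Ppp1r3g, with 2 to 5.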
